A study of Mus musculus with 10 samples.

Results

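The genes described are the immunoglobulin genes of the mouse liver transcriptome, which carry the antibody made by B cells and plasma cells, together with Jchain, which encodes the joining chain of secreted antibody polymers. Members were all genes of the deposited count table whose biotype begins with IG_ and is not a pseudogene, plus Jchain. They numbered 269 of 56748 genes: 222 variable (V) genes, 19 diversity (D) segments, 14 joining (J) segments, 13 constant genes and Jchain. A further 164 immunoglobulin pseudogenes were left out. The family was chosen because its members were already known to be lower in the knockout libraries, so the values of knockout against control libraries below are a description and carry no test.

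The 10 bulk liver RNA-seq libraries came from mice fed a high-fat, high-fructose diet for 4 months, per the labels. In 5 libraries (HKO) the genotype was ACSS2-HKO, a knockout described as specific to liver cells, and in 5 (flox) it was ACSS2-flox, the control that carries the floxed allele without the knockout. No chow-fed or unfloxed group was analysed here, so the diet is shared by every library. The labels name no Cre driver, strain, sex, age, litter or batch and do not say that each library came from a separate animal, so p-values measure only the spread between these libraries.

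An antibody is built from a heavy chain and a kappa or lambda light chain. Each chain joins a V segment, a J segment and, in heavy chains, a D segment to a constant region, and the heavy constant region sets the isotype (IgM, IgD, IgG, IgA or IgE) through class switching. Plasma cells secrete antibody and hold very large amounts of these transcripts. IgA plasma cells are known chiefly from the gut, and IgA from the gut reaches the liver in portal blood.

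The heavy constant genes lie next to each other on chromosome 12, and their positions follow the GENCODE M21 annotation of GRCm38, on the minus strand. Igha (IgA) is at chr12:113254830-113260236, Ighg2c at chr12:113285325-113288932, Ighg2b at chr12:113302965-113307933, Ighg1 at chr12:113325240-113330523 and Ighm (IgM) at chr12:113418558-113422730. The kappa constant gene Igkc is at chr6:70726435-70726966 on the plus strand and Jchain at chr5:88519809-88527891 on the minus strand. The IgG genes are close relatives, and the lines below give the first 120 coding bases of the 3 that hold most IgG reads, to show how far a read can tell them apart. Capitals mark the bases that differ from Ighg2c.
Ighg2c: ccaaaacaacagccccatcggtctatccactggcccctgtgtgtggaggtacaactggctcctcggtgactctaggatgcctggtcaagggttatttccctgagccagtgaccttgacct
Ighg2b: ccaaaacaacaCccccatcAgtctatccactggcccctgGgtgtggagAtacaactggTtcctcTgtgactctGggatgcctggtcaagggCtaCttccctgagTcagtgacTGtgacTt
Ighg1: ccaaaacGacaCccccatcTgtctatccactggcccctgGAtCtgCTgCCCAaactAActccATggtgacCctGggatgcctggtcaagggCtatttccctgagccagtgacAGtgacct

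Over this stretch Ighg2b differed from Ighg2c at 13 positions and Ighg1 differed from Ighg2c at 21. None of the 3 had another member of the family with at least 95% identity over at least 50% of its transcript. V genes can be much closer. The first 120 coding bases of the kappa V genes Igkv1-110 and Igkv1-117, among the most read V genes here, differed at 1 position, in capitals.
Igkv1-110: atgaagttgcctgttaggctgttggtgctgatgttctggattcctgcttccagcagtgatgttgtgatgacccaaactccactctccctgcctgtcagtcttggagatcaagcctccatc
Igkv1-117: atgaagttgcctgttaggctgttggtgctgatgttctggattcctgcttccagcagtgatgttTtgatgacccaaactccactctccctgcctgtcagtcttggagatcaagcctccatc

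D and J segments are far shorter. Ighd1-1, one of the 19 D segments, and Igkj4, a kappa J segment, are shown whole and without capitals.
Ighd1-1: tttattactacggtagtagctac
Igkj4: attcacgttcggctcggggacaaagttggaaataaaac

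Library totals ran from 15413648 to 19275358 counts in HKO and from 16933436 to 17196774 in flox, and 3 counts were worth 0.151 to 0.198 CPM (counts scaled to a common library total, with TMM factors). The family held 28186 counts over the 10 libraries, and 93.32% of them lay in the constant genes and Jchain. No count was found for 100 members, 161 had counts but were too low for the fit of all genes, and 8 passed the filter on low counts. Acss2 itself was read at 52.7, 58.9, 43.7, 40.2 and 51.3 CPM in HKO libraries 1 to 5 and at 73.1, 86.8, 56.4, 128.6 and 58.5 CPM in flox libraries 1 to 5. On the log2 scale the difference was −0.71 ± 0.21 (SE; edgeR adjusted p = 0.0858), so it did not pass the threshold of 0.05. Its direction was that of the labels, HKO library 2 lay above flox libraries 3 and 5, and no HKO library was at 0. Whole liver also holds cells other than hepatocytes, and the source of the Acss2 reads in HKO was not tested.

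Summed over all members, immunoglobulin transcripts were at 67.03, 71.2, 116.6, 101.6 and 71.7 CPM in HKO libraries 1 to 5 and at 85.1, 87.2, 360.3, 350.0 and 291.9 CPM in flox libraries 1 to 5. The mean was 85.6 ± 22.1 CPM in HKO and 234.9 ± 138.3 CPM in flox (SD, n = 5 each), a ratio of 0.364. Flox libraries 3, 4 and 5 stood far above every HKO library, while flox libraries 1 and 2 lay inside the HKO range. The difference of the group means of log2 CPM was −1.22. In whole tissue, fewer antibody-making cells and less transcript per cell cannot be told apart.

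The share of members called in the fit of all genes is given with its background. Of all 14068 genes tested, edgeR called 3.99% in either direction, 3.07% as lower in HKO and 0.917% as higher in HKO. Of the 8 tested members, 4 were called, all lower in HKO: Igkc, Ighg2c, Ighg2b and Ighg1. Of the 10 fits that leave out 1 library, Ighg2c was called in 10, Ighg2b in 6, Ighg1 in 5 and Igkc in 3. The Igkc call was lost without any 1 of HKO libraries 1, 2, 4 and 5 and flox libraries 3, 4 and 5. Because the family was picked on this contrast, nothing is read from that count, and the members that passed the filter are not the whole family.

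IgG showed the widest gap between the groups. Ighg2c, the constant gene of IgG2c, was at 2.85, 1.45, 7.92, 4.49 and 2.42 CPM in HKO libraries 1 to 5, against 9.22, 10.9, 53.2, 40.3 and 39.5 CPM in flox libraries 1 to 5. It was the 1 of the 8 tested members whose groups did not overlap, against 3.46% of all tested genes in which every HKO library lay below every flox library. Its log2 fold change was −3.01 ± 0.53 (SE).

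Ighg2b, the constant gene of IgG2b, was at 3.17, 2.08, 7.12, 3.02 and 2.86 CPM in HKO libraries 1 to 5, against 6.17, 4.68, 33.0, 28.0 and 20.97 CPM in flox libraries 1 to 5. HKO library 3 was higher than flox libraries 1 and 2, and the other HKO libraries were below every flox library. The log2 fold change was −2.35 ± 0.51 (SE).

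Ighg1, the constant gene of IgG1, was at 2.91, 1.07, 1.65, 0.193 and 1.43 CPM in HKO libraries 1 to 5, against 2.14, 2.25, 17.1, 20.8 and 11.8 CPM in flox libraries 1 to 5. HKO library 1 exceeded flox libraries 1 and 2, and HKO library 4 held only 3 reads. The log2 fold change was −2.90 ± 0.67 (SE). Ighg3, the constant gene of IgG3, was rare, with 10 counts in HKO and 18 in flox.

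The 4 IgG genes together reached 8.93, 4.97, 16.8, 7.83 and 6.77 CPM in HKO libraries 1 to 5, against 17.5, 18.1, 103.6, 89.3 and 72.5 CPM in flox libraries 1 to 5. No HKO library reached the lowest flox library. Mean IgG was 9.05 ± 4.55 CPM in HKO and 60.2 ± 40.2 CPM in flox (SD, n = 5 each), a ratio of 0.15.

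Igha, the constant gene of the mucosal isotype IgA, was at 18.6, 23.7, 39.1, 39.1 and 27.1 CPM in HKO libraries 1 to 5, against 13.2, 21.6, 72.1, 98.3 and 84.2 CPM in flox libraries 1 to 5. Flox library 1 was below every HKO library and flox library 2 was below all but HKO library 1. The log2 fold change was −0.97 ± 0.45 (SE). Jchain, which links IgA dimers and IgM pentamers, was at 8.15, 8.62, 11.4, 10.6 and 8.03 CPM in HKO libraries 1 to 5, against 6.05, 5.84, 21.8, 25.7 and 22.1 CPM in flox libraries 1 to 5. For Jchain, both flox libraries 1 and 2 lay below every HKO library and flox libraries 3 to 5 above every HKO library, with a log2 fold change of −0.80 ± 0.37 (SE). Jchain reads per 100 Igha reads ran from 27.1 to 43.8 in HKO and from 26.2 to 45.8 in flox, so the ratio of these 2 transcripts overlapped throughout.

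Ighm, the constant gene of IgM and of the antigen receptor of naive B cells, did not follow the other constant genes. It was at 5.31, 6.23, 4.35, 3.91 and 2.48 CPM in HKO libraries 1 to 5, against 10.4, 6.26, 5.01, 3.32 and 4.37 CPM in flox libraries 1 to 5. Its highest library was flox 1, where Igha and the IgG genes were low, and flox libraries 3 to 5 lay inside the HKO range. The log2 fold change was −0.40 ± 0.32 (SE).

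Ighd, the constant gene of IgD, was at 0.918 ± 0.537 CPM in HKO and 0.582 ± 0.461 CPM in flox (SD, n = 5 each), a difference within the spread of either group. Ighe, the constant gene of IgE, had 7 counts in HKO and 6 in flox. All 6 flox counts came from library 4.

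Igkc, the constant region of the kappa chains that most mouse antibodies carry, had the most counts summed over the 10 libraries, although Igha had more in each HKO library. It was at 18.2, 20.5, 34.4, 28.4 and 22.2 CPM in HKO libraries 1 to 5, against 28.2, 25.9, 135.3, 106.3 and 84.3 CPM in flox libraries 1 to 5. Flox libraries 1 and 2 again lay among the HKO libraries, and the log2 fold change was −1.62 ± 0.40 (SE).

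Iglc1, a lambda constant gene, was at 0.971, 0.315, 1.45, 0.642 and 0 CPM in HKO libraries 1 to 5, against 0.916, 0.669, 1.80, 2.46 and 3.12 CPM in flox libraries 1 to 5. The groups overlapped, and the log2 fold change was −1.43 ± 0.65 (SE). The lambda genes Iglc2 (32 counts in HKO, 54 in flox) and Iglc3 (13 in HKO, 27 in flox) have near-identical transcripts, so reads may be split between them.

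**Figure D1:**
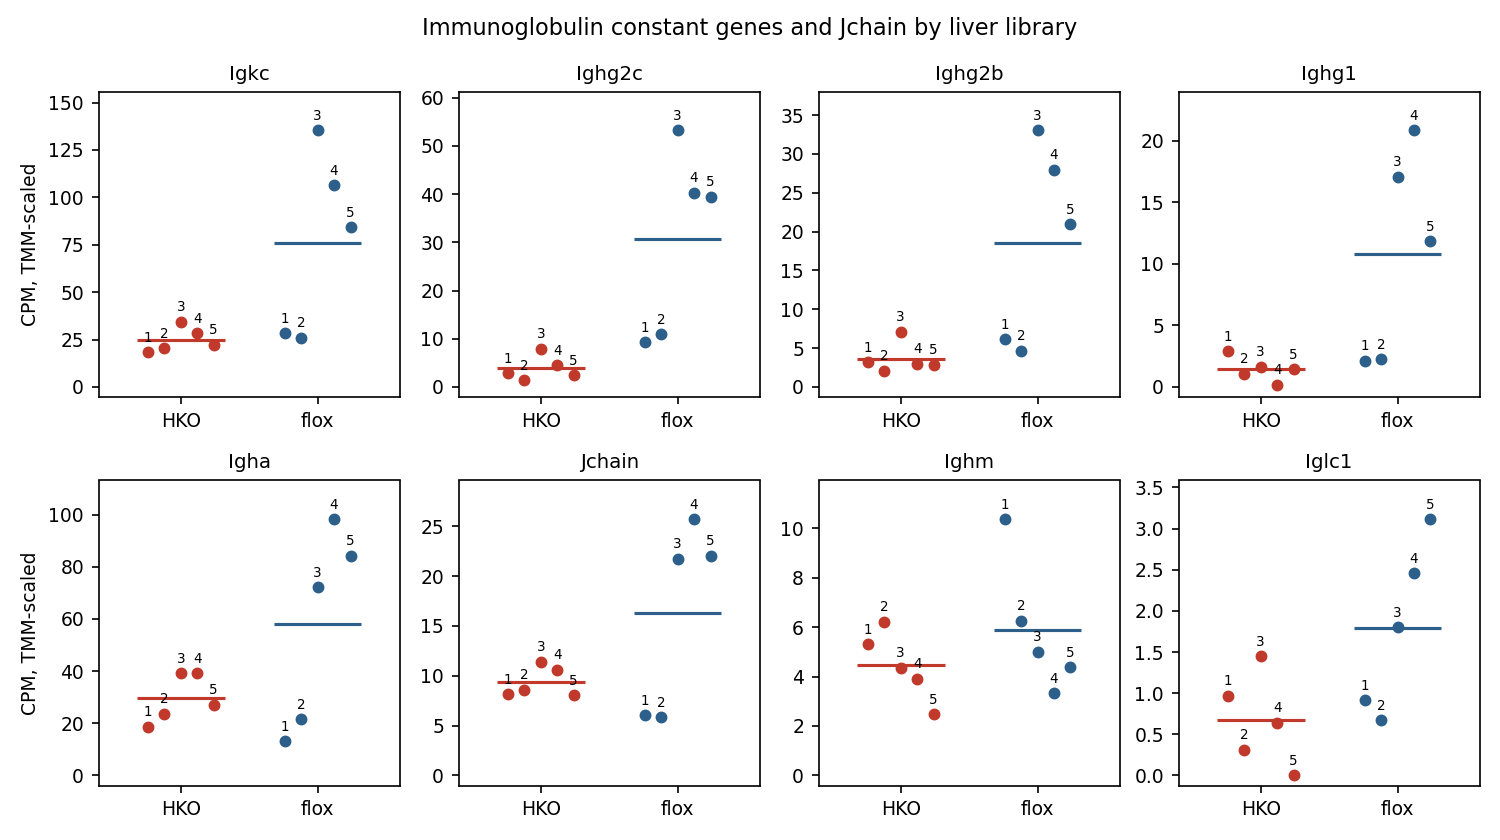
TMM-scaled CPM of the 8 members that passed the filter on low counts, with HKO libraries left and flox libraries right. Points are single libraries with their replicate number, horizontal lines are group means, and each panel has its own linear axis. Flox libraries 3, 4 and 5 stand apart for Igkc, Igha, Jchain and the IgG genes, while Ighm is highest in flox library 1.

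Isotypes were next compared as shares within each library, which sets aside how much antibody transcript the library held. Reads per kilobase of gene model were used here, because longer genes collect more reads. IgA made up 46.3, 57.0, 55.5, 67.1 and 66.8% of heavy constant reads per kilobase in HKO libraries 1 to 5, against 23.9, 35.7, 30.4, 41.6 and 41.4% in flox libraries 1 to 5. Every HKO library was above every flox library. The means were 58.5 ± 8.71% in HKO and 34.6 ± 7.57% in flox (SD, n = 5 each), a difference of 23.95 percentage points.

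IgG took the opposite place, with 29.5, 15.6, 35.2, 21.2 and 22.8% of heavy constant reads per kilobase in HKO libraries 1 to 5, against 48.7, 48.3, 66.5, 55.3 and 55.4% in flox libraries 1 to 5. Again no library overlapped, and this held for flox libraries 1 and 2, whose total immunoglobulin level was inside the HKO range. Ighg2c alone made up 7.02 to 22.6% in HKO and 33.6 to 45.1% in flox. Without any length correction, there were 0.479, 0.21, 0.428, 0.20 and 0.25 IgG reads per IgA read in HKO libraries 1 to 5, against 1.33, 0.839, 1.44, 0.909 and 0.860 in flox libraries 1 to 5. These shares use the members' own values from the contrast they were chosen on, so they too are a description.

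IgM shares divided the libraries in another way. They were 18.6, 21.2, 8.73, 9.49 and 8.64% in HKO libraries 1 to 5, against 26.6, 14.6, 2.99, 1.99 and 3.04% in flox libraries 1 to 5. The libraries with the most IgM by share were flox 1, HKO 2 and HKO 1, where all immunoglobulin together reached 85.1, 71.2 and 67.03 CPM in that order. HKO library 5 had a similar total of 71.7 CPM but an IgM share of 8.64%. The gene model of Ighg2c is 1326 bases, against 2678 for Ighg2b and 2668 for Igha, so per-kilobase shares lean on the deposited gene lengths.

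**Figure D2:**
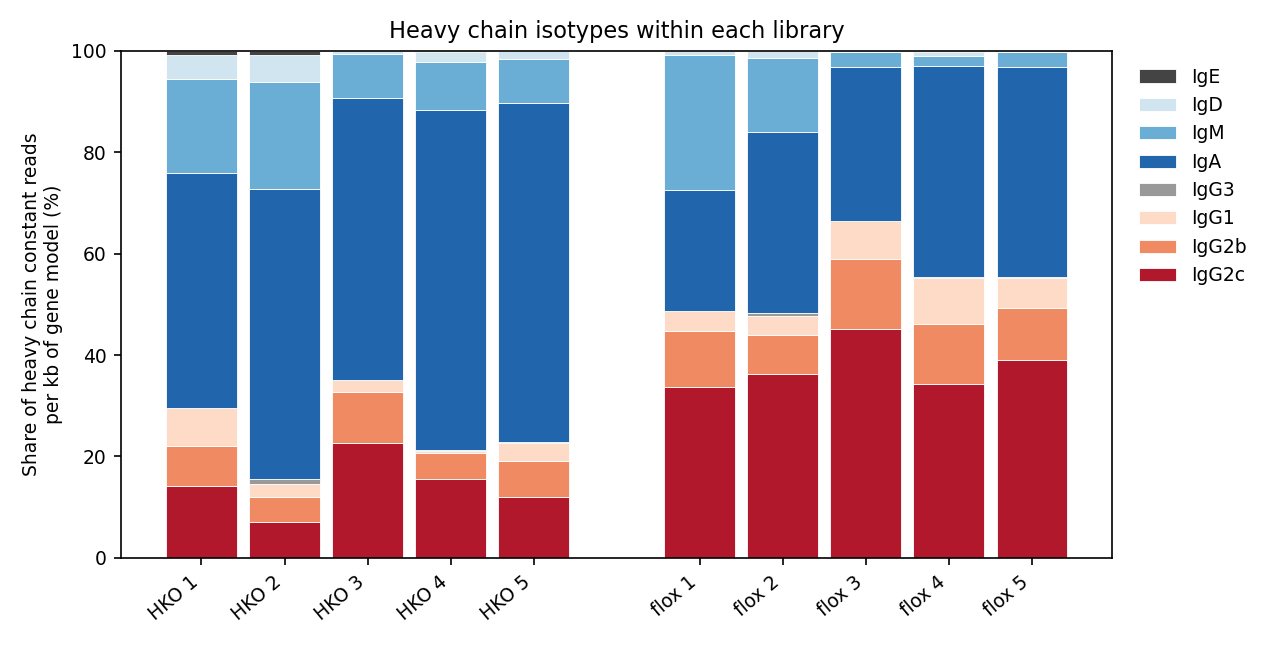
Share of each heavy chain isotype, in percent of heavy constant reads per kilobase of gene model, for the 5 HKO libraries (left) and 5 flox libraries (right). Red and orange tones are IgG subclasses and dark blue is IgA. IgA takes 46.3 to 67.1% in HKO libraries and 23.9 to 41.6% in flox libraries.

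The kappa share of light chain constant reads showed no such split. It was 92.4, 95.9, 93.5, 96.3 and 98.3% in HKO libraries 1 to 5, against 96.1, 96.2, 97.4, 96.7 and 95.6% in flox libraries 1 to 5. The flox values lay inside the HKO range.

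V genes encode the antigen-binding end of each chain and were read rarely. The 222 V genes held 1813 counts in all, 74 of them had none, and none passed the filter, so they are described by sums. All V genes together were at 4.40, 4.40, 7.52, 9.37 and 4.18 CPM in HKO libraries 1 to 5, against 8.002, 7.78, 18.2, 20.6 and 19.4 CPM in flox libraries 1 to 5. HKO library 4 was above flox libraries 1 and 2, and the group means of log2 CPM differed by −1.26. There were 7.04 to 11.5 V reads per 100 constant reads in HKO and 5.69 to 11.3 in flox, so the ratio of V to constant reads overlapped between the groups.

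Each class of V gene showed the same placement of flox libraries 3 to 5. The 115 heavy V genes summed to 1.88, 1.57, 2.38, 3.27 and 1.596 CPM in HKO libraries 1 to 5, against 3.05, 2.61, 4.36, 5.95 and 7.29 CPM in flox libraries 1 to 5. The 104 kappa V genes summed to 2.01, 2.27, 4.68, 5.39 and 2.48 CPM in HKO libraries 1 to 5, against 4.40, 4.74, 11.9, 12.4 and 10.7 CPM in flox libraries 1 to 5. Both classes overlapped only through HKO library 4 and, for kappa, HKO library 3. The 3 lambda V genes held 37 counts in HKO and 121 in flox.

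**Figure D3:**
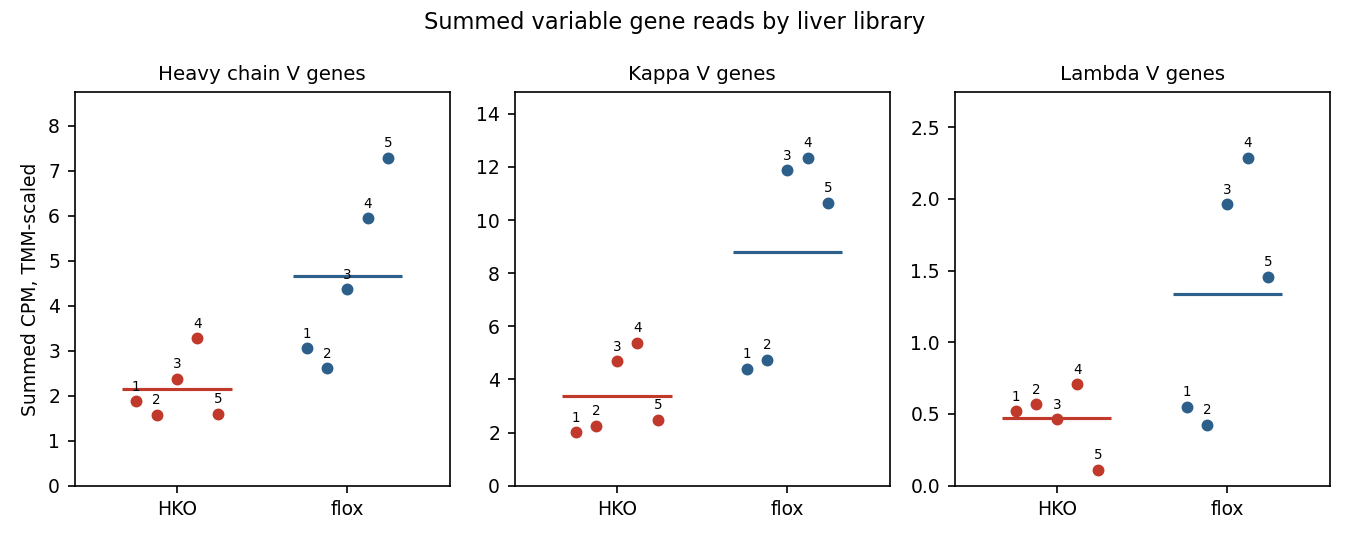
Summed TMM-scaled CPM of heavy, kappa and lambda V genes, with HKO libraries left and flox libraries right. Points are single libraries with their replicate number, lines are group means, and axes are linear and start at 0. Flox libraries 3, 4 and 5 are above every HKO library in all 3 panels.

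The number of V genes with at least 1 read was 35, 36, 42, 57 and 32 in HKO libraries 1 to 5, against 52, 59, 75, 88 and 96 in flox libraries 1 to 5. More genes are seen where more V reads are counted, and the V read totals were 68 to 146 in HKO and 128 to 386 in flox. These numbers are therefore no measure of diversity.

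Single V genes differed from the sum in both directions. The most read over all libraries was Iglv1, a lambda V gene, with 23 counts in HKO and 109 in flox. Igkv1-135 had 17 counts in HKO and 86 in flox, Igkv5-39 had 6 in HKO and 45 in flox, and Igkv17-127 had 2 in HKO and 42 in flox. For Igkv17-127, 20 of the flox counts came from library 3.

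Igkv1-110 had 22 counts in HKO and 47 in flox, and Igkv1-117, the near-copy shown above, had 24 in HKO and 41 in flox. Igkv10-96 had 20 in HKO and 23 in flox. Of the 59 V genes with at least 10 counts, 38 had a near-identical gene among the members. Those 38 held 957 of the 1456 counts, so counts of such genes are uncertain. Pseudogenes and genes outside the family were not compared.

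Ighv1-56, a heavy V gene with no near-identical gene among the members, was the 1 of the 8 most read V genes with more counts in HKO. It had 4, 5, 10, 3 and 17 counts in HKO libraries 1 to 5, against 2, 2, 0, 5 and 5 in flox libraries 1 to 5. In HKO library 5 its 17 reads were 58.6% of 29 heavy V reads (95% exact Clopper-Pearson interval 38.9 to 76.5%), and in HKO library 3 its 10 reads were 27.8% of 36 (14.2 to 45.2%). In flox libraries the leading heavy V gene took 8.28 to 15% of heavy V reads, and in HKO library 4 it took 7.84%. These intervals cover counting error only.

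The leading kappa V gene took 10.7 to 17.8% of kappa V reads in HKO and 9.17 to 15.6% in flox. It was Igkv1-135 in flox libraries 4 and 5 and Igkv17-127 in flox library 3. In HKO library 3 it was Igkv1-117, in HKO library 4 Igkv10-96 and in HKO library 1 Igkv19-93. Leading kappa genes rested on 4 to 33 reads per library.

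By V subgroup, with the subgroups named here chosen after their counts were seen, Ighv1, the largest heavy subgroup, had 114 counts in HKO and 197 in flox. Igkv1 had 67 in HKO and 188 in flox, Igkv3 had 28 in HKO and 114 in flox, and Igkv5 had 9 in HKO and 86 in flox. Ighv9 had 1 count in HKO and 36 in flox, and Ighv14 had 0 in HKO and 19 in flox. Of the 28 flox counts of Ighv9-3, 12 came from library 4 and 12 from library 5. Of the 9 flox counts of Ighv14-3, 8 came from library 5. Other subgroups had near-equal counts or more in HKO, such as Ighv10 with 9 in HKO and 4 in flox, Iglv2 with 14 in HKO and 12 in flox, and Igkv2 with 7 in HKO and 9 in flox.

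J and D segments left almost no trace in the table. Kappa J segments held 46 counts, heavy J segments 20 and lambda J segments 5, over lengths of 38 to 100 bases. Igkj4, printed above, had 18 counts and overlaps another annotated gene on the same strand. The 19 D segments, 10 to 29 bases long like Ighd1-1 above, had 0 counts in every library.

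Genes that plasma cells use besides antibody genes were set beside the family. The list of 25 plasma cell genes held 18 that passed the filter, of which edgeR called 0, with 4 at an unadjusted p under 0.05. Its median log2 fold change was 0.05, beside 0.01 over all tested genes. DESeq2 called 2 of the list, Xbp1 and Derl3, both higher in HKO, as did the edgeR fit without flox library 1, and Derl3 alone was called without HKO library 1. With no filter, edgeR called Derl3 as higher in HKO and Ly6k, with 0 counts in HKO and 24 in flox, as lower. Over all 25 genes, 15 had the larger mean in flox. Many of these genes, such as the chaperone Hsp90b1 (679.8 ± 211.2 CPM in HKO, 563.4 ± 173.4 CPM in flox, SD, n = 5 each), are also expressed by hepatocytes.

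Xbp1, the transcription factor of the secretory programme in plasma cells that is also active in hepatocytes, was at 300.7 ± 60.1 CPM in HKO and 201.1 ± 44.4 CPM in flox (SD, n = 5 each). Its log2 fold change of 0.58 ± 0.18 (SE) had an edgeR adjusted p of 0.102. Derl3, a factor in the disposal of misfolded secretory proteins, was at 24.4 ± 14.7 CPM in HKO and 6.87 ± 4.64 CPM in flox, with an edgeR adjusted p of 0.0578. The other genes of the list at an unadjusted p under 0.05 had lower values in HKO. Slamf7, a surface receptor of plasma cells and other leukocytes, was at 0.554 ± 0.32 CPM in HKO and 1.41 ± 0.85 CPM in flox, with a log2 fold change of −1.35 ± 0.47 (SE) and an edgeR adjusted p of 0.138. Cd38, a surface enzyme of plasma cells and other cells, was at 11.3 ± 3.13 CPM in HKO and 16.7 ± 4.33 CPM in flox, with a log2 fold change of −0.56 ± 0.22 (SE) and an edgeR adjusted p of 0.204.

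Among the genes of the list that did not pass the filter were several tied closely to plasma cells. Mzb1, a chaperone of antibody assembly, had 15 counts in HKO and 20 in flox. Prdm1 and Irf4, transcription factors of plasma cell identity, had 28 and 28 counts in HKO and 81 and 76 in flox. For both genes, 33 of the flox counts came from library 5. Tnfrsf17, the plasma cell survival receptor BCMA, had 3 counts in HKO and 3 in flox.

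**Figure D4:**
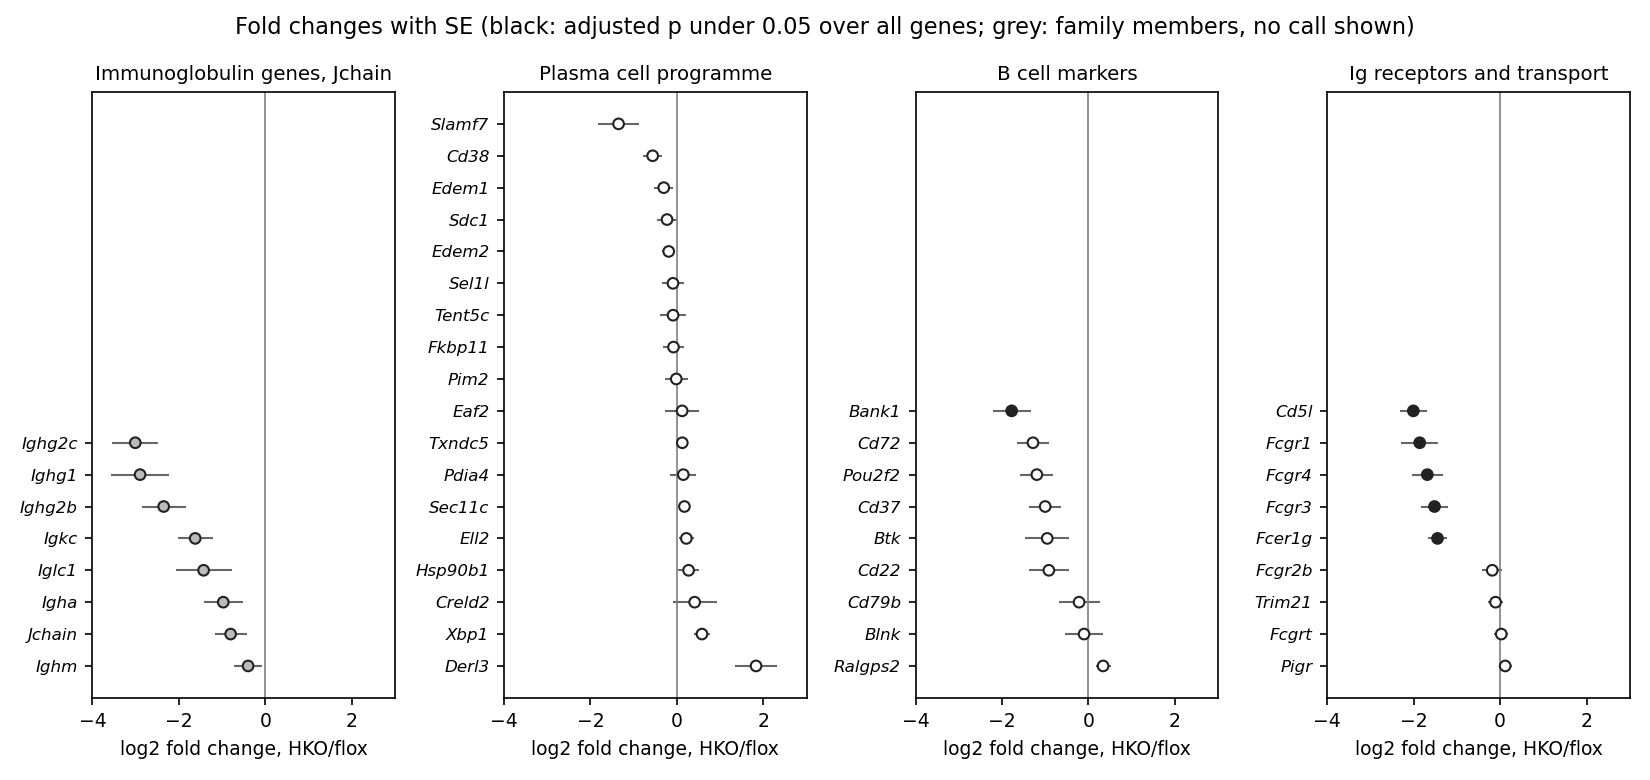
Log2 fold changes, HKO over flox, with their SE for the tested immunoglobulin genes and Jchain (grey, no call shown), the plasma cell list, B cell markers, and antibody receptors and transporters. In the last 3 panels black points passed an edgeR adjusted p of 0.05 and open points did not. Genes of the plasma cell list lie on both sides of 0, and the 5 black points among the receptors are all below 0.

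Of 25 B cell markers, 15 were too low for the filter, 10 passed it and 1 was called, Bank1, a signalling adaptor of the B cell receptor, at 0.515 ± 0.223 CPM in HKO and 1.77 ± 0.931 CPM in flox (SD, n = 5 each). Bank1 fell by 1.78 on the log2 scale (SE 0.44, edgeR adjusted p = 0.0368), a call that was lost without HKO library 1, 2, 4 or 5 or flox library 1 or 5, with adjusted p of up to 0.101. Bank1 had 3, 11, 11, 9 and 7 counts in HKO libraries 1 to 5 and 45, 15, 24, 19 and 56 in flox. It thus passed the filter on low counts through the flox libraries. The median log2 fold change of the 10 was −0.94, beside 0.01 over all tested genes, and it leaves out the 15 markers below the filter. Values ran from Bank1 up to Ralgps2 at 0.34 ± 0.17 (SE), with Cd79b at −0.22 ± 0.47 (SE). Any part of other cell types in these values was not tested.

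Cd79a, a subunit of the B cell receptor, had 33 counts in HKO and 69 in flox. Ms4a1, which encodes CD20, had 22 counts in HKO and 26 in flox. Fcer2a and Blk, also on the list and below the filter, had 23 and 44 counts in HKO and 10 and 32 in flox.

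Of 12 genes of B cell precursors and germinal centres, 5 passed the filter and edgeR called 0, with 1 at an unadjusted p under 0.05. By DESeq2 that gene, Ung, a uracil glycosylase that acts in class switching and in general repair, passed as higher in HKO with an adjusted p of 0.0204. Rag1 and Rag2, the recombinase that joins V, D and J segments, had 0 counts in every library.

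Genes that bind or carry antibody were counted next. Of 11 receptor and transport genes, 9 passed the filter and 5 were called, all lower in HKO. They were the Fc gamma receptors Fcgr1, Fcgr3 and Fcgr4, the shared signalling chain Fcer1g, and Cd5l, a macrophage protein that binds IgM. A further Fc gamma receptor, Fcgr2b, was not called (edgeR adjusted p = 0.755). It was at 24.8 ± 8.90 CPM in HKO and 28.1 ± 6.52 CPM in flox (SD). Whether the 5 called genes fell apart from the macrophage markers given below was not tested. Leaving out any 1 library gave 4 or 5 calls, with Fcgr1 or Fcgr4 the one lost. Fcer1g was at 4.70 ± 1.21 CPM in HKO and 12.8 ± 2.89 CPM in flox and fell by 1.45 on the log2 scale (SE 0.21, edgeR adjusted p = 0.00472), while Cd5l was at 25.8 ± 9.16 CPM in HKO and 103.6 ± 44.0 CPM in flox and fell by 2.01 (SE 0.32, edgeR adjusted p = 0.00621).

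Pigr, the receptor that carries IgA and IgM polymers across epithelia, was at 1461 ± 172.1 CPM in HKO and 1346 ± 181.2 CPM in flox, with a log2 fold change of 0.12 ± 0.15 (SE). Fcgrt, the neonatal receptor that protects IgG from breakdown, was at 162.0 ± 15.4 CPM in HKO and 159.0 ± 33.4 CPM in flox, with a log2 fold change of 0.03 ± 0.16 (SE). Neither passed the edgeR threshold.

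Of 23 genes for plasma cell survival and homing, 12 passed the filter and 4 were called, all lower in HKO. They were Cxcl9, a chemokine, Itgb7, an integrin subunit of gut homing, Vcam1, an adhesion molecule, and Tgfb1, a cytokine involved in the switch to IgA. Cxcl9 was at 6.97 ± 1.81 CPM in HKO and 18.4 ± 8.61 CPM in flox and fell by 1.40 on the log2 scale (SE 0.28, edgeR adjusted p = 0.0156). Only Cxcl9 stayed past the threshold without HKO library 1, HKO library 4 or flox library 5. Without HKO libraries 2, 3 or 5 or flox libraries 1 or 4, between 2 and 3 of the 4 genes were called. Tnfsf13b, which encodes the survival factor BAFF, had 43 counts in HKO and 39 in flox.

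Macrophage markers moved with the family at group level. Of 15 markers, 14 passed the filter and all 14 were called as lower in HKO, with a median log2 fold change of −1.69. Between 11 and 14 of them were called when any 1 library was left out. The summed level of the list was 117.3 to 237.5 CPM in HKO and 300.9 to 707.1 CPM in flox, and no marker was at 0. The order of libraries differed within flox: library 3, with the highest summed immunoglobulin, had the lowest macrophage sum, and libraries 1 and 2, with the lowest immunoglobulin, had 407.5 and 439.2 CPM. Their part in the immunoglobulin values was not tested.

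Of 18 T cell and natural killer cell markers, 9 passed the filter and edgeR called 0, with 0 at an unadjusted p under 0.05 and 0 called by DESeq2. Their summed level was 7.19 to 15.5 CPM in HKO and 7.90 to 13.9 CPM in flox. Of 10 hepatocyte markers, all passed the filter and edgeR called 0, with 3 at an unadjusted p under 0.05, 2 called by DESeq2 as higher in HKO, and a median log2 fold change of 0.21. The identity of the tissue was plain from Alb, the albumin gene, at 90720 ± 10760 CPM in HKO and 81400 ± 19350 CPM in flox (SD, n = 5 each).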

How the data were processed

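Per the labels' protocols, the authors made libraries from total liver RNA with a VAHTS kit. They deposited a raw count of reads for each gene, unscaled. Of build and tools, mm10 and DESeq2 are named in the submitters' processing notes. The aligner, the counter, the strand setting and the sharing of reads between copies, not given in the sources used here, bear most on V genes with near-identical copies. Gene positions and sequences came from GENCODE M21 on GRCm38. The coordinates in the deposited table are not printed, because 0 of the 269 members and 2.83% of the shared identifiers had the same start and end in GENCODE M21. They did serve to find annotated genes that overlap a member, as for Igkj4.

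HKO was compared with flox over all 14068 genes that passed filterByExpr by group, with edgeR 4.0.16 in R 4.3.3 (TMM, quasi-likelihood F-test, two-sided) and Benjamini-Hochberg adjustment over those genes, threshold 0.05. SE was derived from the log2 fold change and F. CPM is TMM-scaled, and n = 5 libraries per group. The alternatives were DESeq2 1.42.0, its size factors, library totals alone, no filter, the replicate number as a block, and leaving out each library. Per-kilobase shares used the deposited gene lengths. Near-identical transcripts were sought among the members only, with BLAST 2.17.0, and exact intervals came from scipy 1.17.1. Within groups, no pair of libraries looked like 1 library deposited again (smallest chi-square per degree of freedom 24.6). On simulated counts for 13846 genes of this comparison, 60.2% of 2-fold and 98.9% of 4-fold changes were recovered, with 8 of 157 calls false. Each gene was drawn on its own with the spread typical of its level. These rates therefore need not hold for the immunoglobulin genes, which differed together between flox libraries.

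The members and the 8 gene lists were chosen with earlier results of these data known. Named genes were constant genes and Jchain with at least 10 counts, the 8 V genes of highest mean CPM, the leading V gene of each library, and from each list its first gene and up to 4 called genes of smallest p (or the 2 of highest level). Other genes named, such as Derl3, Irf4 and Fcgrt, were chosen after their values were seen. A few genes of the lists enter the counts but are not reported here singly or plotted.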

Additional observations from a re-analysis of the deposited data

Results flagged for a closer look

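In 46 groups of 5 libraries examined for a value apart from the rest, 2 were found, and chance alone gives about 1 in 20. Ighg2b in HKO library 3, at 7.12 CPM, stood apart from the other HKO libraries, with a gap to the next of 0.783 of the group's range. Ighe in flox library 4, at 0.343 CPM from 6 counts, stood apart from the other flox libraries, which had none.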

How the results depend on the processing

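The summed immunoglobulin level was lower in HKO under every alternative, with log2 differences from −1.51 to −0.99 over the fits without 1 library, and the IgA share was higher by 21.3 to 27.0 percentage points. It was higher by 22.3 points without division by length. The kappa share differed by −1.07 points, and by −1.83 to −0.36 points without 1 library. The leading kappa V gene took a median of 12.7% of kappa V reads over the 10 libraries, and 7.15% of all V reads.

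Calls depended more on the tool and on single libraries, and the cause was not tested. Over all genes edgeR called 561, DESeq2 1112, and leaving out 1 library gave 289 to 673. Of the immunoglobulin genes, edgeR called 4 of 8 tested, DESeq2 called 8 of 31 with an adjusted p and edgeR with no filter called 8 of 169. The 8 were the same genes in both, the 4 constant genes and the V genes Iglv1, Igkv5-39, Igkv17-127 and Ighv9-3, all lower in HKO. No share over all genes is set beside these 2 counts, and nothing is read from them. Igha, Jchain, Ighm and Iglc1 were called in 0 of the 15 alternatives. Leaving out 1 library gave 1 to 4, with 1 call without HKO library 2, 4 or 5 and 2 without HKO library 1, flox library 4 or flox library 5. Ighg2c passed in all 15 alternatives. Every alternative reuses the values on which the family was picked, so none is separate support. For the plasma cell list, edgeR called 0, DESeq2 2 and edgeR with no filter 2, with 0 to 2 without 1 library. For B cell markers, edgeR called 1, DESeq2 3 and edgeR with no filter 2, with 0 to 2 without 1 library.

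Same-numbered libraries did not deviate together, with correlations of −0.121 to 0.24, so the numbers were not taken to pair them. With the replicate number as a block, 448 genes were called over all genes, 3 immunoglobulin genes (Ighg1 was lost), 0 B cell markers and 0 plasma cell genes, and the summed log2 difference was −1.22. No V, D or J segment passed the filter on low counts with all 10 libraries in the fit.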
